A study of Drosophila melanogaster with 2 samples.

Results

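The binding of CG11085 at the genes of 9 insulator and architectural proteins was examined in whole Drosophila melanogaster embryos. The genes, listed by name, were BEAF-32, CTCF, Cp190, su(Hw), mod(mdg4), Dref, Ibf1, Ibf2 and pzg, and all 9 were found among the 13945 protein-coding genes on the 6 chromosome arms of the Ensembl annotation. The embryos were 0 to 24 h old and came from a transgenic strain whose insertion makes CG11085, a homeobox gene, as a fusion with enhanced green fluorescent protein (eGFP). Chromatin was precipitated with an antibody against GFP and sequenced (ChIP-seq). Both libraries are biological replicates of 1 group, labelled as transgenic flies expressing the fusion. The labels name neither a driver nor a cell type for the fusion. No library from flies without the fusion was analysed here, so the signal that such chromatin would give at the same sites cannot be stated, and read depth is unknown. Of the 9 genes, 5 carried a peak of the authors' conservative list, which was derived from both replicates. The peak summit lay within 1 kb of a transcription start site (TSS) of Cp190, BEAF-32, pzg and Dref, and inside the gene of mod(mdg4). CTCF, su(Hw), Ibf1 and Ibf2 had none.

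Insulators are DNA elements that limit which enhancers act on which promoters and that separate chromatin domains. In flies they are bound by sequence-specific proteins, here BEAF-32, CTCF, su(Hw), Ibf1 and Ibf2, which recruit the shared cofactors Cp190 and mod(mdg4), both of which hold a BTB domain through which such proteins pair. Dref binds the DNA replication-related element, whose core is TATCGATA and overlaps the CGATA core bound by BEAF-32, and pzg (putzig) is a zinc finger protein found in complexes with Dref and TRF2. Sites of BEAF-32 and Dref are common at the promoters of broadly expressed genes, and insulator proteins at borders of chromatin domains.

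The sequences that carried the summits at Cp190, Dref, pzg and mod(mdg4) are shown first, from the RefSeq copy of dm6, read from 5′ to 3′. The promoters of mod(mdg4), CTCF, Ibf1 and Ibf2 follow. Capitals mark every match, on either strand, to 7 words: TATCGATA (Dref), CGATA (BEAF-32), AGGNGGC (CTCF), TGCATA (su(Hw)), GGTCACAC (the core promoter word Motif 1), GAGAG (GAGA factor) and TAATTA (a homeodomain word). No stretch is shown for BEAF-32, or for su(Hw), whose promoter held neither TATCGATA nor CGATA. TATCGATA is its own reverse complement and holds the CGATA word on both strands, and in Ibf1 a CGATA match on the reverse strand runs into a TGCATA match. The stretch of Cp190 is chr3R:15275236-15275397 on the minus strand, with the summit at its base 51 and the last 6 bases inside the transcript. Those of Dref (chr2L:9967230-9967312, minus strand, summit at base 40) and pzg (chr3L:21285963-21286098, plus strand, summit at base 16) are all the bases between the gene's TSS and that of its divergent neighbour. The 30 bases around the summit in mod(mdg4) are chr3R:21365411-21365440 on the plus strand, with the summit at base 15.
Cp190, summit and promoter: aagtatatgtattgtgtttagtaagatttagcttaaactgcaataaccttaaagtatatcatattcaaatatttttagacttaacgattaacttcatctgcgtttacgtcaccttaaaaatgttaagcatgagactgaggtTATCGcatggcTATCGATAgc
Dref, summit and promoter: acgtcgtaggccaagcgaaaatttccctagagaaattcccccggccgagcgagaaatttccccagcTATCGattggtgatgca
pzg, summit and promoter: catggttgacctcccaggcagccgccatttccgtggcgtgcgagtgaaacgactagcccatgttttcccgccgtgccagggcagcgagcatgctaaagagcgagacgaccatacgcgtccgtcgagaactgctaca
mod(mdg4), around the summit: attactaaattatagcaaaaTATGCATAtt
The promoters of the remaining stretches end at the base before the TSS, except that of Ibf2, which runs 3 bases into the transcript. They are chr3R:21377402-21377481, minus strand, for mod(mdg4), whose own TSS had no peak, chr3L:7356714-7356763, minus strand, for CTCF, chr3R:9258864-9258963, plus strand, for Ibf1 and chr3R:9258499-9258561, minus strand, for Ibf2.
mod(mdg4), own promoter: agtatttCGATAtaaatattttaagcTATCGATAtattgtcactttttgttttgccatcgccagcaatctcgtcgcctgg
CTCF, promoter: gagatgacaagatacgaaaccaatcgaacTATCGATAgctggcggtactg
Ibf1, promoter: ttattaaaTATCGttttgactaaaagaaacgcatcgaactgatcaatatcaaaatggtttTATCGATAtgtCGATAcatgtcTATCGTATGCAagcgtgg
Ibf2, promoter: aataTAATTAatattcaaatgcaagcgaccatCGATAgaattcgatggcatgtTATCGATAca

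With a summit within 1 kb of a TSS, 4 of the 9 genes were bound, against 15.1% of all protein-coding genes (2109 of 13945). Counting summits in the gene body as well, 5 of the 9 were bound, against 17.9% of all protein-coding genes. The larger list that the authors also derived from both replicates gave 5 genes as well, against 20.5%. The lists of the single replicates gave 4 genes each, against 15.3% for replicate 1 and 13.2% for replicate 2. Both held mod(mdg4), Cp190 and BEAF-32, whereas Dref was only in the list of replicate 1 and pzg only in that of replicate 2. The genes were listed by name with earlier results of these data known, so no test was made of these counts.

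Signals of the peaks are the authors' values, on a scale that is not stated. Over the 2610 conservative peaks on the arms the pooled signal had a median of 124 and quartiles of 91.8 and 184. Replicate 1 gave the higher signal at 2380 of these peaks, and the ratio of replicate 1 to replicate 2 had a median of 1.51 and quartiles of 1.23 and 1.86. At all 5 bound genes replicate 1 was likewise the higher.

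**Figure D1:**
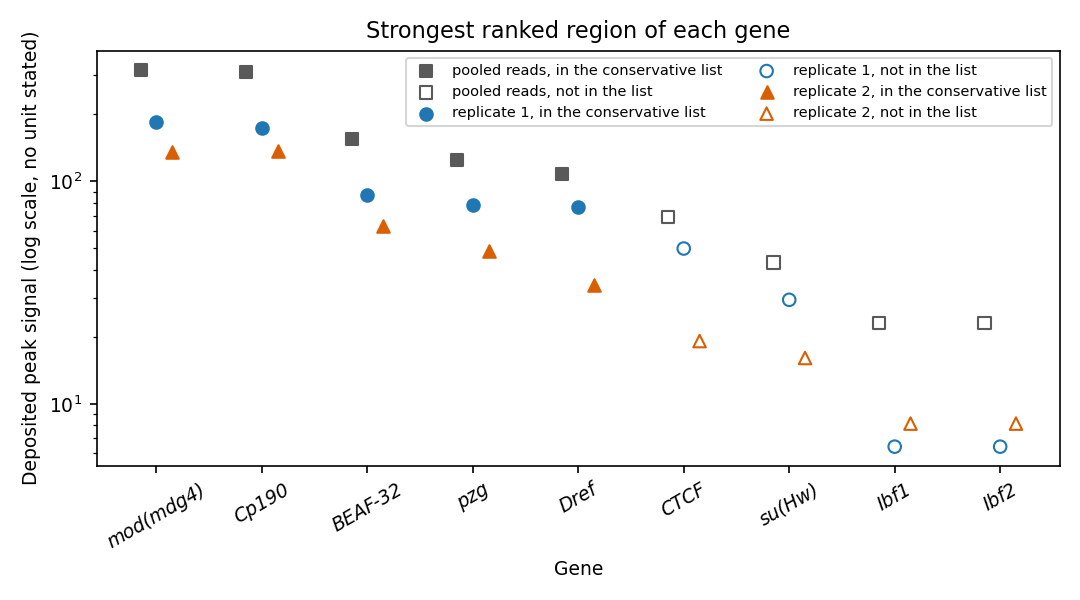
Deposited peak signal, on a log scale, of the strongest ranked region within 1 kb of a TSS or in the body of each of the 9 genes, in the pooled reads (squares), replicate 1 (circles) and replicate 2 (triangles). Filled points are regions of the conservative list, from mod(mdg4) at 318 to Dref at 108 in the pooled reads, and open points are regions outside it, from CTCF at 69.1 to Ibf1 and Ibf2 at 23.1.

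Among the shared cofactors, Cp190 (FBgn0000283), a BTB and zinc finger protein recruited to most classes of fly insulator, had the strongest promoter peak of the 9 genes. The gene lies at chr3R:15270432-15275241 on the minus strand, and the peak at chr3R:15275279-15275389. Its signal was 173 in replicate 1, 138 in replicate 2 and 311 in the pooled reads, which ranked 241 of 2610. The ratio between replicates, 1.26, was within the quartiles of all conservative peaks. The summit lay 106 bp upstream of the Cp190 TSS and 175 bp upstream of that of CG4338, a gene transcribed in the other direction from a TSS 281 bp away, and outside every annotated exon. The antisense RNA gene asRNA:CR46081 has its TSS 870 bp from this summit. A second ranked region, with its summit at −867 bp from the TSS, had a pooled signal of 67.7 and did not enter the conservative list.

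The other cofactor, mod(mdg4) (FBgn0002781), had the highest pooled signal of the 9 genes, but far from its own TSS. This gene, at chr3R:21350846-21377401 on the minus strand, makes many protein isoforms with a common first part, and their last parts are joined on by trans-splicing from precursor transcripts made on both strands. The peak at chr3R:21365341-21365440 had a signal of 185 in replicate 1, 136 in replicate 2 and 318 in the pooled reads, and ranked 230 of 2610. Its summit lay 11976 bp downstream of the annotated mod(mdg4) TSS, which puts it inside the gene of 26556 bp. Replicate 2 gave it slightly less than Cp190, 136 against 138, and replicate 1 more, so the order of these genes differed between the replicates.

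The summit in mod(mdg4) lay between start sites of the precursor units, which Ensembl annotates as separate protein-coding genes (pre-mod(mdg4)). It was 184 bp upstream of the plus-strand start shared by the units AD, AE, U, V, W, X and Y, and 135 bp upstream of the minus-strand start shared by AB, C and 1 transcript of E. The other start of unit E, on the minus strand, lay 63 bp upstream of the summit, which therefore fell in a 5′ untranslated region of E. The 23 precursor genes use 7 start sites. At the minus-strand start of AA, N and O, a region with a summit 46 bp upstream had a signal of 53.0 in replicate 1, 24.1 in replicate 2 and 76.6 in the pooled reads. That region was in the larger list and not in the conservative one. At the start of T and Z the strongest region within 250 bp had a pooled signal of 18.1, and at the second start of U and V 26.5. No ranked region had its summit within 250 bp of the start of the other 8 units. Thus 1 conservative peak accounted for 3 of the 7 start sites and for 10 of the 23 precursor genes, which are also counted among the 2109 bound protein-coding genes.

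At the annotated promoter of mod(mdg4) itself, the strongest ranked region within 1 kb had a signal of 26.6 in replicate 1, 8.20 in replicate 2 and 36.4 in the pooled reads. This was below the median of 43.8 over the 11977 protein-coding genes with any ranked region within 1 kb of a TSS. The nearest conservative summit lay 1375 bp upstream, outside the window, with a pooled signal of 168.5. It was 201 bp from the TSS of tin (tinman), a homeobox gene of heart development. Counting the gene body gives a long gene more room for a summit, and 42.5% of the 764 protein-coding genes at least as long as mod(mdg4) had one.

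**Figure D2:**
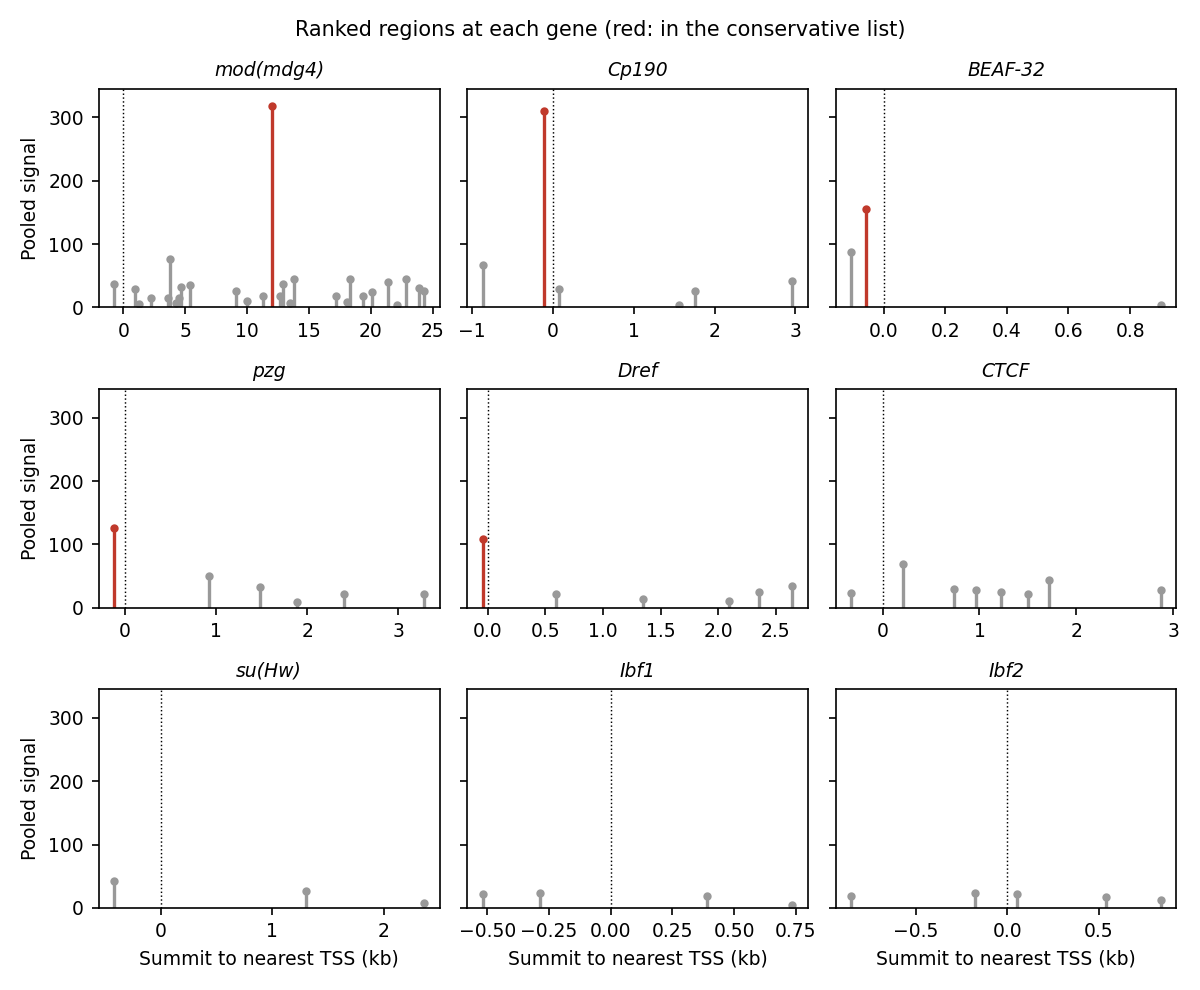
Pooled signal of every ranked region within 1 kb of a TSS or in the body of each gene, against the distance of its summit from the nearest TSS of that gene in kb, with negative values upstream and a separate distance axis for each gene. Red lines are regions of the conservative list: they stood just upstream of the dotted TSS in Cp190, BEAF-32, pzg and Dref and 11976 bp downstream of it in mod(mdg4), while CTCF, su(Hw), Ibf1 and Ibf2 had grey lines alone.

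Of the 5 sequence-specific insulator proteins, BEAF-32 alone had a conservative peak at its gene. For 5 genes this count is near the share of all protein-coding genes, 15.1% within 1 kb of a TSS and 17.9% with gene bodies. BEAF-32 (FBgn0015602), the boundary element-associated factor, lies at chr2R:14770469-14772630 on the plus strand with 3 annotated TSSs. The peak had a signal of 86.8 in replicate 1, 63.3 in replicate 2 and 155 in the pooled reads, a rank of 903 of 2610. Its summit lay 56 bp upstream of the first TSS, inside an exon of the antisense RNA gene asRNA:CR42254 and 990 bp upstream of the TSS of Spred, a regulator of receptor tyrosine kinase signalling. A second summit, in the 5′ untranslated region and 106 bp upstream of the third TSS, was in the larger list and in the list of replicate 1. There the replicates were further apart, with 62.9 in replicate 1 and 19.03 in replicate 2.

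CTCF (FBgn0035769), the one insulator protein of this group shared with vertebrates, had 8 ranked regions and none in the conservative list. The strongest had a signal of 49.9 in replicate 1, 19.2 in replicate 2 and 69.1 in the pooled reads, with a summit 207 bp downstream of the TSS, inside the gene and in an exon of asRNA:CR45822. Its value stood at the 76.96th percentile of the strongest promoter regions of all genes that had one. At su(Hw) (FBgn0003567), whose protein binds the gypsy insulator, the strongest of 3 regions had 29.4 in replicate 1, 16.1 in replicate 2 and 43.1 in the pooled reads, at the 48.7th percentile.

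Ibf1 (FBgn0037670) and Ibf2 (FBgn0037669), which encode paired factors that recruit Cp190, are neighbours transcribed in opposite directions and had the weakest values. They share their strongest region, with 6.42 in replicate 1, 8.15 in replicate 2 and 23.1 in the pooled reads, at the 10.4th percentile. Its summit was 286 bp upstream of Ibf1 and 177 bp upstream of Ibf2. An adjoining region, with its summit 56 bp downstream of the Ibf2 TSS, had nearly the same pooled signal, 22.4, and 8.15 in replicate 2, but 19.1 in replicate 1. The replicate 1 value given for these genes therefore depends on which region of this near tie is taken. The nearest conservative summit was 12973 bp away from the Ibf1 TSS and 12510 bp from that of Ibf2, compared with 2270 bp for CTCF and 2632 bp for su(Hw).

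Dref and pzg, the proteins of the DNA replication-related element, both had a peak of ordinary strength. At pzg (FBgn0259785), which lies at chr3L:21286099-21290310 on the plus strand, the signal was 78.0 in replicate 1, 48.9 in replicate 2 and 125 in the pooled reads, a rank of 1283 of 2610. The summit was 121 bp upstream of pzg and 16 bp upstream of CG12974, which starts 137 bp away on the other strand. At Dref (FBgn0015664), at chr2L:9964147-9967229 on the minus strand, it was 77.1 in replicate 1, 34.3 in replicate 2 and 108 in the pooled reads, a rank of 1581. This summit lay 44 bp upstream of Dref and 40 bp upstream of RpL13, which encodes a protein of the large ribosomal subunit and starts 84 bp away on the other strand. Dref had the least even replicates of the bound genes, with a ratio of 2.25 at the 89.5th percentile of all conservative peaks.

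**Figure D3:**
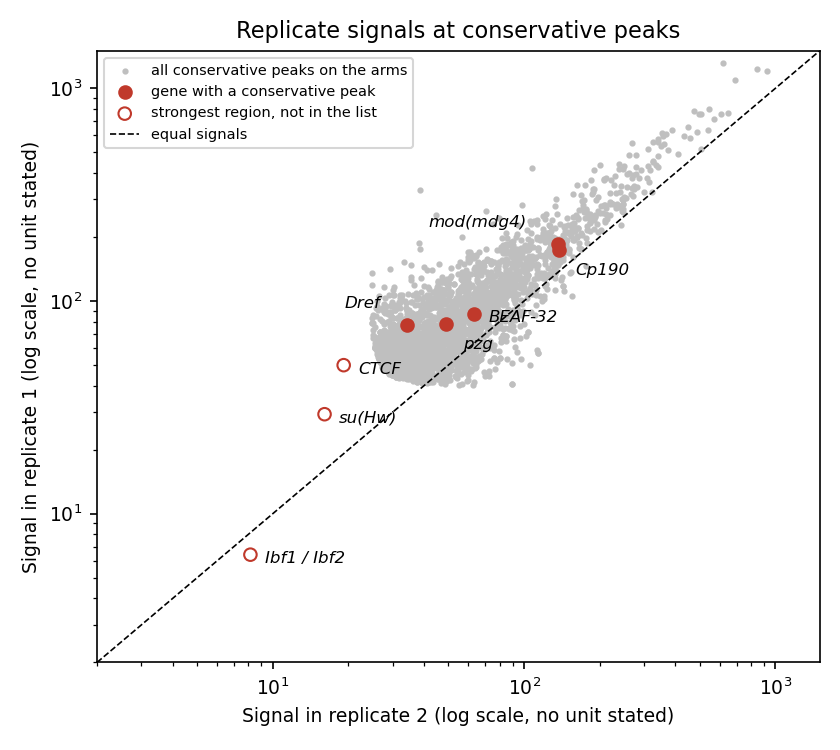
Signal in replicate 1 against replicate 2, both on log scales, at the 2610 conservative peaks on the arms (grey), at the strongest conservative peak of the 5 bound genes (filled red) and at the strongest ranked region of the 4 others (open red, with Ibf1 and Ibf2 sharing 1 region). Above the dashed line of equal signals the replicate 1 value is the higher, as at all 5 bound genes, and the open points have the lowest replicate 2 values of the 9 genes, from 8.15 to 19.2.

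The order of the 9 genes by pooled signal and by replicate 1 was mod(mdg4), Cp190, BEAF-32, pzg, Dref, CTCF, su(Hw), and then Ibf1 with Ibf2, and replicate 2 exchanged only mod(mdg4) and Cp190. In replicate 1, pzg (78.0) and Dref (77.1) lay much closer to each other than the replicates did at either gene, and the same held for mod(mdg4) and Cp190. The authors' threshold separated Dref, with a −log10 global irreproducible discovery rate (IDR) of 2.62, from CTCF, with 1.04, where the lowest value in the conservative list was 2.00. Between them lay 1.79 at the AA, N and O start in mod(mdg4) and 1.63 at the upstream region of Cp190, both outside the list.

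Positions of the summits were similar among the promoter-bound genes. All 4 pooled summits were upstream of the gene's own TSS, by 44 to 121 bp. At Dref the replicates differed in this, with the summit 118 bp upstream in replicate 1 and inside the gene in replicate 2. For 1371 conservative summits the position was taken from whichever protein-coding gene started closest, at most 500 bp away. Of these, 85.3% were upstream, with a median position of −100 bp and quartiles of −173 and −40 bp. Measured in that way, Cp190 and BEAF-32 kept their positions, 106 and 56 bp upstream, between the quartiles. The closest start was RpL13 for Dref, with the summit 40 bp upstream, and CG12974 for pzg, with the summit 16 bp upstream. The pzg summit was then outside the quartiles. Each of the 4 genes shared its summit with another protein-coding gene within 1 kb, as did 65.4% of all bound genes. In 3 of them, Cp190, Dref and pzg, the pooled summit lay between TSSs less than 1 kb apart that face away from each other. This held for 55.3% of bound genes. Taken singly, both replicates placed their summit between these starts at Cp190, only replicate 1 at pzg and neither at Dref. A peak between such starts cannot be assigned to one gene of the pair from these files.

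In the ranked comparison, the summits of the replicates lay a median of 24 bp apart over the 2610 conservative peaks, with quartiles of 10 and 45 bp. They were 6 bp apart in mod(mdg4) and 18 bp in BEAF-32, and further apart than the upper quartile in pzg (51 bp), Cp190 (69 bp) and Dref (137 bp). At each of these genes they fell on opposite sides of the pooled summit. The base composition around the summits was mixed. Within 50 bp of the summit the share of A and T was 75.2% at Cp190, 74.3% at mod(mdg4) and 65.3% at BEAF-32, and 49.5% at Dref and 45.5% at pzg. All conservative summits had a median of 66.3% with quartiles of 57.4% and 72.3%, so Cp190 and mod(mdg4) lay above this middle range and Dref and pzg below it, and regions that did not pass had a median of 53.5%.

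Words of the insulator proteins were looked for in the promoters and, in a shorter window of 50 bp to each side, around the summits. TATCGATA stood in the promoter (250 bp upstream to 50 bp downstream of the TSS) of 6 of the 9 genes, namely BEAF-32, CTCF, Cp190, mod(mdg4), Ibf1 and Ibf2, against 9.38% of all 13921 RefSeq promoters and 14.5% of the bound ones. It was in 2 of the 4 promoter-bound genes and in 4 of the 5 others, and at none of the 5 summits within 50 bp, where 2.41% of all conservative summits and 0.214% of regions that did not pass had it. With the TSS counted as 0, the match covered −4 to 3 in Cp190, −7 to 0 in Ibf2, −21 to −14 in CTCF, −40 to −33 in Ibf1, −54 to −47 in mod(mdg4) and −210 to −203 in BEAF-32. The Dref gene itself had no TATCGATA in this window, nor had pzg and su(Hw).

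CGATA, the shorter word, stood in every promoter but that of su(Hw), against 47.5% of all promoters, and at 1 of the 5 summits, in Dref, against 17.7% of all summits and 10.2% of regions that did not pass. This count was 3 with 100 bp to each side of the summit, 0 at the summits of replicate 1 and 2 at those of replicate 2. No share of all summits is given for these alternatives, so their counts cannot be set against the 17.7%. The lists of the replicates also differ in Dref and pzg. TGCATA, from the su(Hw) site, had a pair of overlapping matches beside the summit in mod(mdg4), against 7.93% and 6.20%, and was in the promoter of Ibf1, against 15.4% of all promoters. The homeodomain word TAATTA was within 50 bp of none of the 5 pooled summits, against 8.66% and 5.21%. It was within 100 bp of 2 of them and within 50 bp of 1 summit of replicate 2, again with no share of all summits. TAATTA was in the promoters of su(Hw), mod(mdg4), Ibf2 and pzg, against 20.5%. GGTCACAC was in the promoter of su(Hw) alone, from 5 to 12 bp past the TSS, against 7.72%, and at no summit, against 0.996% and 0.231%. AGGNGGC and GAGAG were found in none of these windows, against 8.33% and 29.9% of all promoters and 4.25% and 10.1% of all summits, and 5.65% and 12.3% of regions that did not pass. A match describes the letters only and shows no binding of the factor.

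Other genes of insulator and architectural proteins were bound at 13 of 39 listed (33.3%) within 1 kb of a TSS, beside the 15.1% of all genes. Their median signal was 172. Insulator cofactors had 4 of 9 bound, led by Chro (Chromator), a chromodomain protein that works with BEAF-32 and Cp190, with a signal of 492 in replicate 1, 410 in replicate 2 and 894 in the pooled reads. The kinase JIL-1 followed with 172, the RNA-binding protein shep with 134 and the BET protein fs(1)h with 112 in the pooled reads. Of these 4, fs(1)h alone had no summit within 1 kb of a TSS in the list of replicate 2. The Chro peak, ranked 26 of 2610, was above every peak of the 9 genes in both replicates.

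Cohesin and condensin, the ring complexes that hold and fold chromosomes, had 6 of 15 bound. These were led by the cohesin regulator pds5 with a pooled signal of 598, the cohesin subunit SA1 with 269, the condensin subunit SMC2 with 246 and the cohesin loader Mau2 with 173. The weakest of the 6, with a pooled signal of 79.7, was in neither replicate's own list. The core cohesin genes SMC1, SMC3 and vtd had no conservative summit. Of the other DNA-binding insulator proteins 2 of 10 were bound, Trl (GAGA factor) with 241 and pita with 102. Of TRF2 and the NURF remodeller 1 of 5 was bound, Iswi with 81.3, which was in neither replicate's own list. Trf2 and E(bx), the largest NURF subunit, were in the larger list and in that of replicate 1. The count of bound genes was therefore 3 in the larger list, 2 in that of replicate 1 and 0 in that of replicate 2.

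**Figure D4:**
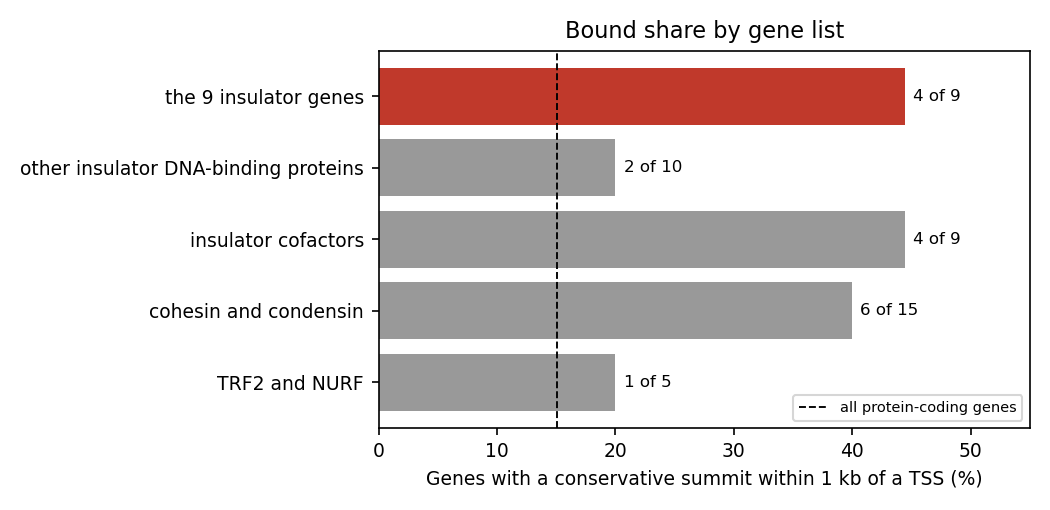
Percent of genes bound by a conservative summit at most 1 kb from a TSS in the 9 insulator genes (red) and in 4 lists of related genes (grey), with the count of bound genes and list size beside each bar and the 15.1% of all protein-coding genes as a dashed line. The 9 genes and the cofactors had 4 of 9 each, cohesin and condensin 6 of 15, the other DNA-binding insulator proteins 2 of 10, and TRF2 and NURF 1 of 5.

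Nearest to the Cp190 promoter in both replicate signals (distance of log2 values over the 2 replicates) was CG4338, which has the same summit. It was followed by CG5131 and GCS2beta, which share 1 summit with 170 in replicate 1, 140 in replicate 2 and 314 in the pooled reads.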

How the data were processed

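The 2 ChIP-seq samples were described only by peak files, which the authors deposited in dm6 coordinates. The signal of each peak, its IDR score (a whole number up to 1000) and the −log10 of its global IDR are values the authors deposited. Peaks were thresholded by IDR, with a lowest score of 830 in the conservative list, and the file lists that came with the data name 1 control file. For the aligner and the peak caller, names and versions were not given in these sources. Fragments were 200 to 800 bp, per the labels.

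Replicate signals came from the authors' ranked comparison of both replicates (142665 regions on the arms), whose rows all 2610 conservative peaks matched. Genes and TSSs came from Ensembl release 115, sequence and promoters from RefSeq, all on the dm6 assembly. Summits, distances and words were computed in Python 3.11.15 with pandas 2.3.3, with the steps checked on simulated data. Depth is unknown, so no counting intervals are given, and 1 group of 2 replicates allows no test of a condition. The members and lists were chosen with earlier results of these data known. Named genes were the 9 genes, protein-coding genes with a TSS within 1 kb of their summits, up to 4 bound genes per related list by signal, and the 3 genes nearest to Cp190 in replicate signals; tin, antisense RNAs and unbound related genes were named after their values were seen. Alternatives were other lists, windows, an IDR of 0.001, RefSeq genes and each replicate alone.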

Additional observations from a re-analysis of the deposited data

How the results depend on the processing

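Of 106 alternative values, 65 kept to the limits set for a change, 37 moved and 4 changed sign. A global IDR of 0.001 left 3 of the 9 genes bound (mod(mdg4), Cp190 and BEAF-32), and 2 within 1 kb of a TSS, with backgrounds of 9.85% and 8.53%. In the larger list the backgrounds were 20.5% and 17.3%, with a TSS window of 2 kb 20.7% and 18.8%, and with one of 500 bp 12.9% within the window. Of the 9 genes, 4 had a summit within the TSS window in the larger list, 4 at 500 bp and 5 at 2 kb. The 2 kb window took in the summit 1375 bp upstream of mod(mdg4), which lies closer to tin. With each replicate's list alone the backgrounds were 13.2% to 15.3%, and 11.2% to 13.3% within 1 kb. In each of these lists 4 of the 9 genes were bound, and 3 within 1 kb of a TSS. The median signal of the 5 bound genes, 155 in the pooled reads, was 63.3 to 86.8 in single replicates. After subtraction of the median over all conservative peaks, the median log2 replicate ratio of the bound genes went from 0.46 to −0.13, with BEAF-32 at −0.13, Cp190 at −0.26 and mod(mdg4) at −0.15, while Dref (0.58) and pzg (0.09) stayed positive: replicate 1 was higher at most peaks. Summit windows of 100 bp to each side held a word in 4 of 5 genes, against 2 within 50 bp. Single-replicate summits held a word in 1 to 3 of the 4 genes in each replicate's list. A wider window has more room for a word, and no share of all summits is given for it. No paired analysis was possible because there is 1 group. Depth is unknown, and 2 replicates give only an imprecise estimate of error. Dref and pzg were each in 1 replicate's own list only.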
